A study of Mus musculus with 66 samples.

Results

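Oocytes grown from embryonic stem cells for 20 days in reconstituted ovaries were compared with large oocytes from mouse ovaries at postnatal day 6 (P6), by poly(A) RNA sequencing. The D20 group held 3 libraries of oocytes from the culture and the P6 large group held 3 libraries of ovarian oocytes, out of 66 libraries in the table. All genes with a mean of at least 1 RPM (reads per 1000000 reads of the library) in either group were taken, which gave 12599 of 24062 genes. RPM is a share of a library's reads and is not divided by transcript length, so a gene's value is compared here only with that of the same gene in other libraries. The last gene inside the limit was AF067063, with a higher group mean of 1.0006 RPM, and the first outside it was Ak7, at 0.997 RPM.

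The P6 large oocytes came from ovaries that carry the stella-ECFP reporter, with the strain given as C57BL/6 x B6D2F1. The D20 oocytes came from embryonic stem cells with the strain given as C57BL/6 X 129/SvJ, turned into primordial germ cell-like cells. Of these, 5000 Blimp1-mVenus positive cells were aggregated with 75000 frozen and thawed E12.5 gonadal somatic cells, and the aggregates were cultured on Transwell-COL membranes with 10 µM of the Rock inhibitor Y-27632 for the first 2 days. The somatic cells around the cultured oocytes are thus of gonadal origin. The labels give no oxygen level for this course of culture. Strain label, cell source and culture differ together between the groups and cannot be told apart. Nothing in the labels says that the 3 libraries of a group came from separate cultures or animals. The p-values thus measure a spread between libraries of a group, which may be technical. In the main limma fit this spread was estimated over 54 libraries of 18 groups, so it is not that of the 6 compared libraries alone.

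In the mouse ovary, small primordial follicles are held dormant with the transcription factor FOXO3 in the oocyte nucleus. When PI3K signalling through KIT is engaged, FOXO3 leaves the nucleus, the oocyte enlarges, and it lays down the zona pellucida and the maternal transcripts later used by the egg. Large oocytes of the first postnatal week are the first growing oocytes of the ovary.

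The libraries held 14728710 to 18390926 reads for D20 and 19090678 to 21358449 for P6 large, so that 3 reads correspond to between 0.140 and 0.204 RPM. Pearson's r of log2(RPM + 1) across genes was 0.985 to 0.996 within D20, 0.991 to 0.994 within P6 large and 0.958 to 0.977 between the groups. D20 replicate 2 stood apart from the other D20 libraries: 15 genes were at least 2-fold apart between replicates 1 and 3, but 197 between replicates 1 and 2 and 111 between replicates 2 and 3. Results that rest on this library are given with and without it. Among the ovarian groups, P6 large oocytes were the closest to D20, with a median r of 0.970. P4 large oocytes followed at 0.942, and the other ovarian groups lay between 0.548 and 0.740.

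Most genes had similar levels in both groups. Of the 12599 genes, 94.8% had group means within 2-fold of each other on the log2(RPM + 1) scale and 82.5% within 1.5-fold, and the median log2 difference, D20 minus P6 large, was 0.07. A total of 2590 genes (20.6%) passed an adjusted p of 0.05 in limma, 1728 of them (13.7%) higher in D20 and 862 (6.84%) lower. Scaling the libraries by median-of-ratios size factors in place of total reads gave 1542 higher (12.2%) and 1317 lower (10.5%), with a median difference of 0.01. edgeR's quasi-likelihood test on the reads recovered from the RPM values called 1777 genes higher (14.1%) and 1805 lower (14.3%). A called difference of at least 1 log2 unit was seen for 633 genes (5.02%), 519 higher (4.12%) and 114 lower (0.905%). All 3 D20 libraries lay above or below all 3 P6 large libraries for 6167 genes (48.9%), 3959 above (31.4%) and 2208 below (17.5%). Of the 584 genes that reached 1 RPM in D20 alone, 270 were called higher, and of the 181 that reached it in P6 large alone, 45 were called lower. These had to be higher in that group to be taken at all, and no support is drawn from their counts.

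**Figure D1:**
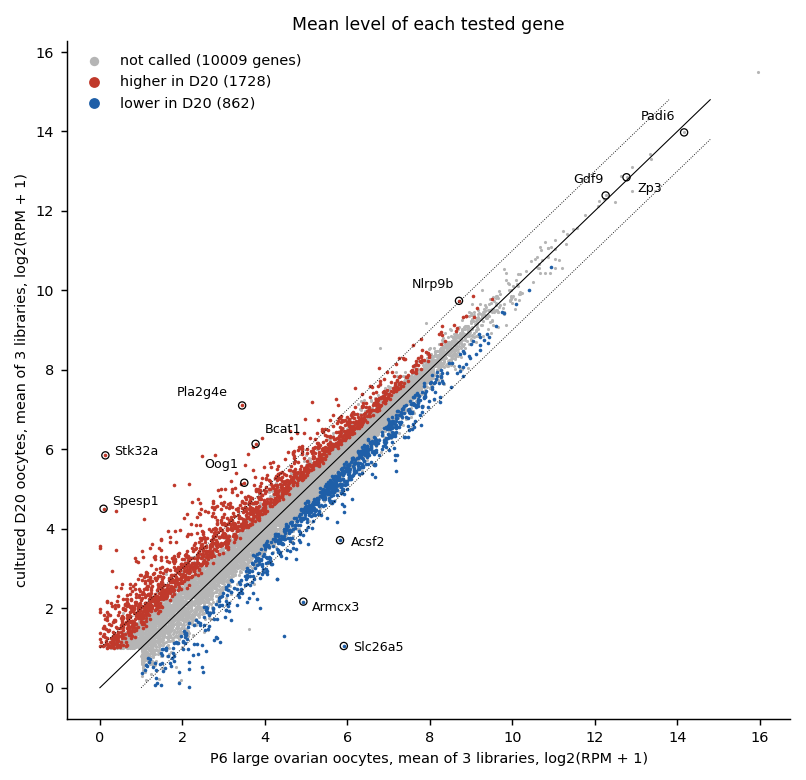
Mean level of each gene in P6 large oocytes (x axis) and D20 oocytes (y axis), both as log2(RPM + 1), for the 12599 genes compared. Genes called higher (1728) or lower (862) in D20 are coloured, and most genes lie near the diagonal.

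The same test between D20 and the small oocytes of P6 ovaries called 10839 of 13668 genes (79.3%), and 6709 (49.1%) differed by at least 1 log2 unit. Small and large oocytes within P4 ovaries differed in 9693 of 13326 genes (72.7%). The direction of the D20 difference was set beside the P4 difference, whose libraries it does not share. Of the 853 genes lower in D20 with a value at P4, 448 (52.5%) were higher in small than in large P4 oocytes and 181 (21.2%) were lower. Of the 1487 genes higher in D20 with a value at P4, 698 (46.9%) were higher in small P4 oocytes and 435 (29.3%) were lower. Over all 12159 genes with both values the shares were 48.3% and 23.3%. Across these genes, which are not independent replicates, Pearson's r was -0.04.

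The leading genes described here were chosen among genes called by limma whose groups do not overlap. Being called and not overlapping are thus conditions of their choice, and no support is drawn from either. The 2 genes with the largest difference in the direction of D20 were near 0 in P6 large oocytes. Stk32a, which encodes a serine/threonine kinase, was at 55.2, 58.6 and 56.1 RPM in the D20 libraries against 0.105, 0 and 0.187 RPM in the P6 large libraries (log2 difference 5.72, SE 0.350, adjusted p = 3.48e-16). These levels came from 813, 1077 and 957 reads in D20 and 2, 0 and 4 reads in P6 large. Spesp1, whose protein is known from the equatorial segment of the sperm acrosome, was at 21.3, 21.8 and 22.03 RPM in the D20 libraries against 0, 0.0515 and 0.140 RPM in the P6 large libraries (log2 difference 4.42, SE 0.180, adjusted p = 1.16e-22). Here the reads numbered 314, 400 and 376 in D20 and 0, 1 and 3 in P6 large. The D20 libraries were within a few percent of each other for both genes, and no library of one group came near the other group. Both genes entered the comparison through their D20 level alone. Spesp1 lies at chr9:62270729-62282208 on the minus strand of GRCm38.

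Both genes were higher at D20 than at D11 of the culture, and Stk32a had begun to rise before D11. Stk32a had a mean of 1.70 RPM at D7, 10.7 RPM at D9 and 26.6 RPM at D11. Its D11 libraries ran from 15.2 to 47.0 RPM. The mean was 41.0 RPM at D13, 49.4 RPM at D15 and 56.6 RPM at D20, against 0.234 RPM in P4 large oocytes. Spesp1 was at 11.5 RPM in germ cells of E16.5 ovaries and at 0 RPM in P4 large oocytes. In culture it stood at 1.28 RPM at D11 and 21.7 RPM at D20. The wild-type cultures at D21 in normoxia, which are not among the compared libraries, held 47.0 RPM of Stk32a and 5.95 RPM of Spesp1.

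Pla2g4e, which encodes a cytosolic phospholipase A2 that makes N-acyl-phosphatidylethanolamines, was at 152, 125 and 132 RPM in the D20 libraries against 7.75, 9.47 and 12.55 RPM in the P6 large libraries (log2 difference 3.67, SE 0.318, adjusted p = 8.65e-12), a 13.8-fold ratio of the means. All D20 libraries were above all P6 large libraries by a wide margin. A pair of its neighbours belong to the same enzyme family and lie next to it on chromosome 2. These neighbours were picked after their values were seen. Pla2g4d was at 13.1, 10.9 and 13.3 RPM against 3.04, 4.02 and 7.58 RPM (log2 difference 1.26, SE 0.175, adjusted p = 7.23e-07) and Pla2g4f at 16.8, 22.1 and 16.1 RPM against 2.15, 4.32 and 2.86 RPM (log2 difference 2.26, SE 0.303, adjusted p = 4.25e-07), and neither overlapped between the groups. The genes Ehd4 and Vps39, also within 100 kb of Pla2g4e, were not called. Reads shared between such paralogs could be assigned to either gene, which was not tested. The levels of the 3 genes ran differently through the culture: Pla2g4e was at 175 RPM at D13, Pla2g4f at 28.5 RPM and Pla2g4d at 1.03 RPM.

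The 250 bases before the start of each of the 3 phospholipase genes are shown because the genes adjoin and differed together. They are from RefSeq on GRCm38.p6, the build of the files, written 5′ to 3′ along the gene's own strand, which is the minus strand for each. Capitals mark TTTATA, the reverse complement of TATAAA.
Pla2g4e promoter, chr2:120245336-120245585: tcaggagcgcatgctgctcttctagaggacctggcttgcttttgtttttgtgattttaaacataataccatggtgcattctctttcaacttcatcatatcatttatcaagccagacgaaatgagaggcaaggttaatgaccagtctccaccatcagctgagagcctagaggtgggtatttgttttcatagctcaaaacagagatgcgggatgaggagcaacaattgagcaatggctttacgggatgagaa
Pla2g4d promoter, chr2:120289070-120289319: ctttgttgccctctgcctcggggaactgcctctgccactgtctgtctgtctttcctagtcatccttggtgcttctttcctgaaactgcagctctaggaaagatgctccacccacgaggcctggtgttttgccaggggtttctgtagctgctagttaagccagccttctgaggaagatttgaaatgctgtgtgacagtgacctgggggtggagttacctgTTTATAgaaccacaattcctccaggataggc
Pla2g4f promoter, chr2:120314166-120314415: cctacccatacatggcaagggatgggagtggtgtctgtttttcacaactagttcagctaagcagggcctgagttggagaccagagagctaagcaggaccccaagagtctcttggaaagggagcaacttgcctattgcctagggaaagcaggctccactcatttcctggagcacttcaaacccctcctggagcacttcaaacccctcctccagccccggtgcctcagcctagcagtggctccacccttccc
Slc26a5 promoter, chr5:21865605-21865854, minus strand, shown for the gene with the largest difference toward P6 large, with GCCCAGTCA, the reverse complement of TGACNNNGC, in capitals: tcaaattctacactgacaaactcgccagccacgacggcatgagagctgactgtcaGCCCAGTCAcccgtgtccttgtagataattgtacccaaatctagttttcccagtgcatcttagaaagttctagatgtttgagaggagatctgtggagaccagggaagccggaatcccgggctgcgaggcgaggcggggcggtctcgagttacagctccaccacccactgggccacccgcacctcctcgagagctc
The motifs were searched on both strands. They were the E-box form CACGTG and the hypoxia response core ACGTG, which the former contains, and the general E-box CANNTG, which covers the first of these. The others were the amino acid response form TGATGNAAT, the forkhead form GTAAACA, the antioxidant response core TGACNNNGC, the homeodomain form TAATTA and the TATA box TATAAA. Of the 32851 promoters in the RefSeq table, 12.4% hold TATAAA, 10.2% hold TGACNNNGC and 66.2% hold CANNTG, which the Pla2g4e window holds at 2 places that are not capitalised. No comparison of motif shares was made between gene groups, because only 77.1% of the 519 higher and 76.3% of the 114 lower genes had an entry, under the 80% that such a comparison needs.

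Steap4, a metalloreductase of iron and copper, was at 52.96, 51.4 and 63.1 RPM against 5.55, 3.09 and 5.06 RPM (log2 difference 3.37, SE 0.391, adjusted p = 1.51e-08). Agpat9, the glycerol-3-phosphate acyltransferase also called Gpat3, was at 58.8, 47.3 and 63.7 RPM against 8.38, 0.927 and 8.47 RPM (log2 difference 3.36, SE 0.446, adjusted p = 3.30e-07). P6 large replicate 2 was the lowest library for both genes. Bcat1, the cytosolic branched-chain amino acid aminotransferase, was at 67.3, 71.9 and 69.2 RPM against 13.04, 12.9 and 12.2 RPM (log2 difference 2.36, SE 0.245, adjusted p = 1.14e-09). Fxyd6, a regulator of the sodium pump, was at 70.0, 84.2 and 78.0 RPM against 15.6, 10.8 and 16.4 RPM (log2 difference 2.38, SE 0.242, adjusted p = 6.88e-10). Both groups were tight for Bcat1, whose libraries within a group lay close together. Atp2b4, a calcium pump of the plasma membrane, was at 28.4, 17.1 and 32.5 RPM against 2.67, 3.55 and 6.32 RPM (log2 difference 2.40, SE 0.286, adjusted p = 3.05e-08), with D20 replicate 2 the lowest of its group but still above every P6 large library. Stk32c, a kinase of the same family as Stk32a, was at 30.8, 38.9 and 32.9 RPM against 3.51, 3.45 and 3.37 RPM (log2 difference 2.98, SE 0.267, adjusted p = 2.07e-11). Emx2, a homeobox factor needed for the urogenital tract, was at 25.7, 20.3 and 27.1 RPM against 4.03, 1.80 and 5.24 RPM (log2 difference 2.50, SE 0.290, adjusted p = 1.55e-08). Neither gene overlapped between the groups.

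Steap4, Emx2 and Atp2b4 were also called higher at D20 than at D17 of the same culture, a comparison that shares the D20 libraries and called 1882 genes (14.9%), 1375 higher (10.9%) and 507 lower (4.02%). Their log2 differences from D17 were 1.25 (adjusted p = 0.0261), 0.92 (0.0278) and 1.63 (2.13e-04). Emx2 was at 8.89 RPM at D11 and 0.941 RPM at D13 before reaching 24.4 RPM at D20. Atp2b4 likewise stood at 57.0 RPM at D11, 4.81 RPM at D13 and 26.0 RPM at D20.

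Manba and Ccdc147 were called in limma, but a single P6 large library set each spread. Manba, a lysosomal beta-mannosidase, was at 30.3, 32.2 and 29.8 RPM in the D20 libraries against 0.210, 0.360 and 18.3 RPM in the P6 large libraries (log2 difference 3.32, SE 0.687, adjusted p = 4.40e-04). P6 large replicate 3 was far above the rest of its group, and the gene was not called by edgeR's quasi-likelihood test (adjusted p = 0.126). Ccdc147, a flagellar axoneme protein also called Cfap58, was at 48.4, 50.9 and 48.0 RPM in the D20 libraries against 47.2, 1.03 and 0.796 RPM in the P6 large libraries (log2 difference 3.16, SE 0.751, adjusted p = 0.00199). Here the first P6 large library reached the D20 level, and edgeR gave an adjusted p of 0.313. Gsto2, which lies within 100 kb of Ccdc147 and was picked after its values were seen, was at 15.3, 21.2 and 17.5 RPM against 3.20, 0.0515 and 0.0468 RPM (log2 difference 3.50, SE 0.592, adjusted p = 2.66e-05), again with the first P6 large library the highest of its group. Genes that vary by 8-fold or more within a group and reach 10 RPM numbered 5 in P6 large, namely Prr15l, Ccdc147, Manba, A930015D03Rik and H2-Aa, and 0 in D20.

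**Figure D2:**
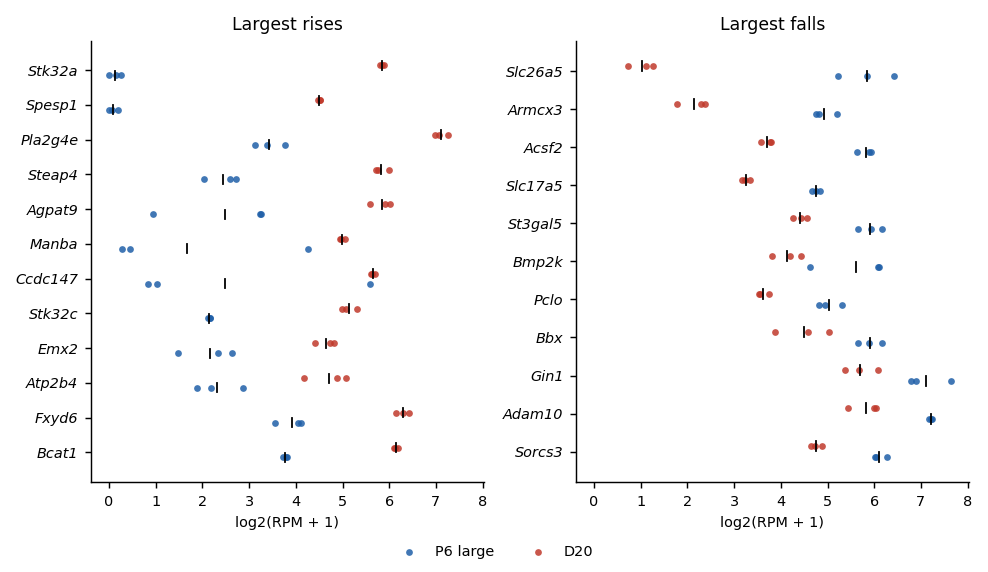
Levels of 12 genes with the largest differences toward D20 and 11 with large differences toward P6 large, as log2(RPM + 1), in each D20 library (red) and each P6 large library (blue), with the group mean as a vertical tick. The genes were chosen among those without overlap between the groups. P6 large replicate 3 of Manba and replicate 1 of Ccdc147 sit far from the rest of their group.

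Of the genes called lower in D20, Slc26a5 had the largest difference. It encodes prestin, the motor protein of cochlear outer hair cells, and was at 1.15, 0.652 and 1.41 RPM in the D20 libraries against 84.9, 36.7 and 56.5 RPM in the P6 large libraries (log2 difference -4.80, SE 0.428, adjusted p = 1.86e-11), a 55.4-fold ratio of the means. The P6 large libraries spread over more than 2-fold, and every D20 library was near 1 RPM. In the ovary its level was 7.48 RPM at P1, 47.2 RPM in P4 large and 59.4 RPM in P6 large oocytes. In the culture it was 1.11 RPM at D17, and the D21 cultures in normoxia held 4.07 RPM.

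Armcx3, an armadillo-repeat protein of the mitochondrial outer membrane, was at 3.87, 2.45 and 4.16 RPM against 35.6, 27.2 and 25.9 RPM (log2 difference -2.78, SE 0.297, adjusted p = 2.48e-09). Acsf2, an acyl-CoA synthetase, was at 12.8, 12.6 and 10.9 RPM against 60.0, 48.2 and 58.6 RPM (log2 difference -2.11, SE 0.223, adjusted p = 1.94e-09). The next gene within 100 kb, Rsad1, which was picked after its values were seen, was at 0.951, 2.12 and 1.11 RPM against 7.96, 4.63 and 5.76 RPM (log2 difference -1.58, SE 0.239, adjusted p = 3.94e-06). No library overlapped between the groups for these genes. Acsf2 kept a mean of 61.8 RPM in P4 large oocytes, while the culture held 63.4 RPM at D5 and 12.1 RPM at D20. Slc17a5, the lysosomal sialic acid exporter, was at 8.42, 7.99 and 9.08 RPM against 27.4, 24.4 and 25.9 RPM (log2 difference -1.50, SE 0.233, adjusted p = 5.72e-06). St3gal5, the sialyltransferase that makes the ganglioside GM3, was at 20.6, 18.3 and 22.4 RPM against 71.0, 60.1 and 49.0 RPM (log2 difference -1.50, SE 0.171, adjusted p = 1.12e-08). Adam10, a membrane metalloprotease that sheds cell-surface proteins, was at 65.0, 42.6 and 63.1 RPM against 147, 144 and 149 RPM (log2 difference -1.37, SE 0.161, adjusted p = 1.82e-08).

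The rest of the leading lower genes included the kinase Bmp2k (log2 difference -1.46, SE 0.279, adjusted p = 1.58e-04), the presynaptic scaffold gene Pclo (log2 difference -1.42, SE 0.341, adjusted p = 0.00213), the HMG-box factor gene Bbx (log2 difference -1.41, SE 0.231, adjusted p = 1.51e-05), Gin1, which derives from a retrotransposon integrase (log2 difference -1.40, SE 0.257, adjusted p = 9.21e-05), and the sorting receptor gene Sorcs3 (log2 difference -1.35, SE 0.287, adjusted p = 5.94e-04). D20 replicate 2 was the lowest library for Bmp2k, Bbx and Adam10 and the highest of the D20 group for Gin1. P6 large replicate 2 was far below the other P6 large libraries for Bmp2k, at 67.2, 23.7 and 66.9 RPM, without reaching the D20 libraries at 20.6, 12.9 and 17.3 RPM. Of the 24 leading genes in both directions, 22 were called under every one of the 17 alternative settings that gave the gene a value, and the exceptions were Manba and Ccdc147. Within 100 kb of the higher ones lay 24 tested neighbours, of which 6 were higher and 2 lower. Within 100 kb of the lower ones lay 22, of which 1 was higher and 2 lower. Over all genes tested, 13.7% were higher and 6.84% lower.

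**Figure D3:**
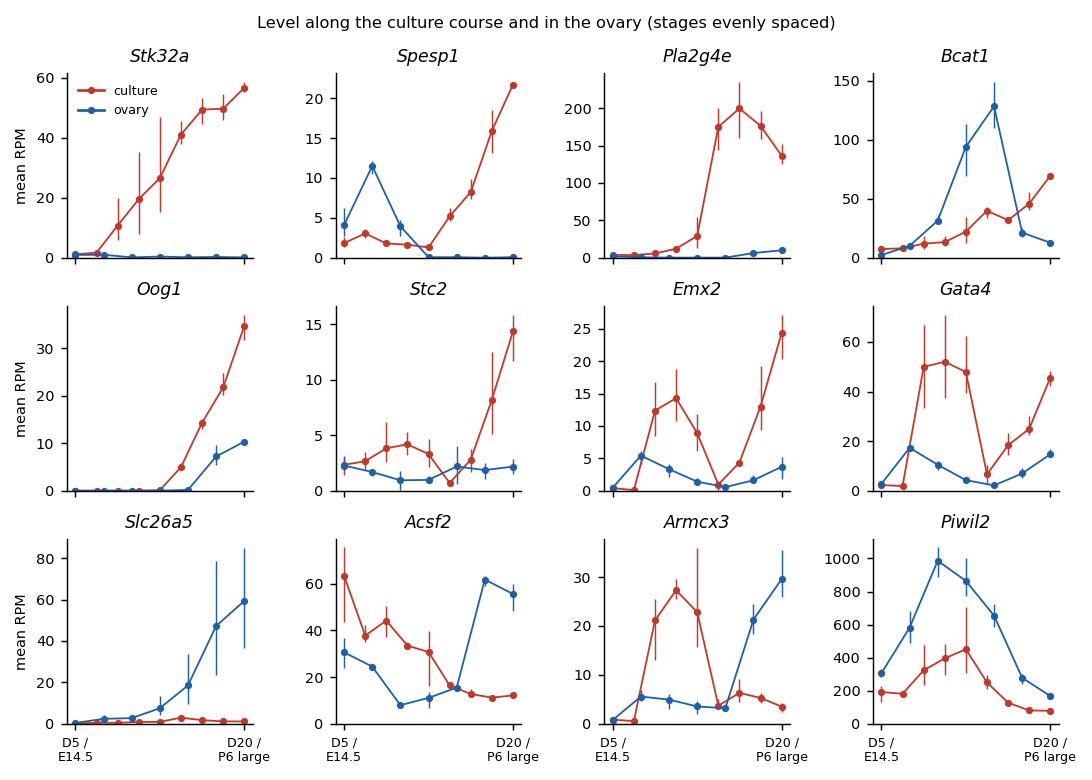
Group means of 12 genes, in RPM on a linear axis, along the ovarian stages and along the days of culture (x axis), with D20 and P6 large among them. Bars run from the lowest to the highest library of a group. Stk32a and Spesp1 climb in culture up to D20, while Slc26a5 climbs in the ovary.

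Of the 11 genes of secreted factors and the egg coat, which mark the growing oocyte, limma called 0, against 20.6% of all genes, and 1 had an unadjusted p under 0.05. edgeR called 2 of them higher. Their log2 differences ran from -0.08 to 0.51, with a median of 0.12 against 0.07 over all genes. For 4 of the 11 all D20 libraries lay above all P6 large libraries, against 31.4% of all genes. For 0 they lay below, against 17.5%. The SE comes from the joint fit of 54 libraries, and a gene that limma did not call is not shown to be at equal levels. Over all genes tested, 13.7% were higher and 6.84% lower, and for 48.9% the groups did not overlap. These shares are the background of every list count below. Gdf9, the growth factor through which the oocyte acts on granulosa cells, was at 5244, 5547 and 5314 RPM in the D20 libraries against 4698, 5133 and 4925 RPM in the P6 large libraries (log2 difference 0.13, SE 0.339, adjusted p = 0.833). Its D20 libraries all lay above its P6 large libraries. Zp2, a zona pellucida glycoprotein, was at 8793, 12478 and 8922 RPM against 10190.0, 10831 and 10381 RPM (log2 difference -0.08, SE 0.372, adjusted p = 0.914). Zp3, the glycoprotein known for sperm binding, was at 6239.9, 9342 and 6535 RPM against 6611, 7552 and 6791 RPM (log2 difference 0.06, SE 0.397, adjusted p = 0.94). D20 replicate 2 was the highest of the 6 libraries for both zona genes, and the groups overlapped. For the partner growth factor Bmp15, D20 replicate 2 was instead the lowest of its group, at 942, 581 and 913 RPM in D20 against 549, 604 and 638 RPM in P6 large (log2 difference 0.41, SE 0.326, adjusted p = 0.392).

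Of 20 maternal-effect genes 2 were higher and 0 lower, with a median of 0.16. Oog1, an oocyte-specific leucine-rich repeat gene with close paralogs among which reads may be split, was at 35.3, 31.9 and 37.0 RPM against 10.2, 10.5 and 10.4 RPM (log2 difference 1.65, SE 0.144, adjusted p = 8.87e-12). Nlrp9b, of the family of maternal NLRP genes, was at 859.8, 825 and 873 RPM against 403, 377 and 472 RPM (log2 difference 1.04, SE 0.286, adjusted p = 0.0075). Neither gene overlapped between groups. Nlrp5 (MATER), a core member of the subcortical maternal complex, was at 5422, 6818 and 5183 RPM against 7349.5, 7838 and 7679 RPM (log2 difference -0.40, SE 0.465, adjusted p = 0.584), while edgeR called it lower with an adjusted p of 0.00767. Padi6, of the same complex, was at 14139, 20054 and 14188 RPM against 17421, 19509 and 18234 RPM (log2 difference -0.21, SE 0.393, adjusted p = 0.759). Dppa3 (stella), which protects the maternal genome from demethylation, was at 1018, 1416 and 1146 RPM against 1563, 1604 and 1154 RPM (log2 difference -0.27, SE 0.319, adjusted p = 0.595).

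Of 20 genes of meiotic arrest and maturation 4 were higher and 0 lower, with a median of 0.21. edgeR called 7 higher and 1 lower, and rescaling left 2 higher. Fbxo5 (EMI1), which restrains the anaphase-promoting complex, was at 131, 134 and 139 RPM against 79.1, 79.7 and 84.7 RPM (log2 difference 0.72, SE 0.131, adjusted p = 7.62e-05). Cdc20, an activator of that complex, was at 63.2, 69.2 and 64.3 RPM against 31.0, 31.4 and 45.7 RPM (log2 difference 0.87, SE 0.183, adjusted p = 5.53e-04). The spindle checkpoint gene Bub1b (log2 difference 0.44, SE 0.151, adjusted p = 0.0313) and the kinase gene Aurka (log2 difference 0.34, SE 0.126, adjusted p = 0.0496) were also higher. Of the 14 tested genes of maternal mRNA storage and decay 0 were higher and 3 lower, with a median of -0.25. The repressor helicase gene Ddx6 was at 349, 108 and 265 RPM against 434, 363 and 421 RPM (log2 difference -0.91, SE 0.255, adjusted p = 0.00847). The translation regulator Dazl was at 162, 96.5 and 153 RPM against 223, 198 and 194 RPM (log2 difference -0.61, SE 0.168, adjusted p = 0.00745) and the deadenylase gene Cnot6l at 241, 139 and 224 RPM against 276, 256 and 284 RPM (log2 difference -0.47, SE 0.155, adjusted p = 0.0255). D20 replicate 2 was the lowest library for all of these, and without it none of the 14 was called.

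The oocyte transcription factors gave 1 gene higher and 1 lower of 13, with a median of -0.26. Obox5, an oocyte homeobox gene, was higher (log2 difference 0.56, SE 0.200, adjusted p = 0.0397), and Stat3, a signal transducer that also acts as a transcription factor, was lower at 338, 318 and 315 RPM against 513, 486 and 484 RPM (log2 difference -0.61, SE 0.177, adjusted p = 0.0114). edgeR called 7 of the 13 lower. Figla, which switches on zona genes, was at 63.5, 92.8 and 69.4 RPM against 109, 107 and 106 RPM with an adjusted p of 0.216 in limma and 0.00823 in edgeR. Sohlh1, a factor of early follicle growth, was at 36.1, 78.2 and 42.1 RPM against 97.5, 86.0 and 80.7 RPM with 0.117 and 0.0286. For both, D20 replicate 2 was the nearest D20 library to the P6 large group. Nobox (log2 difference 0.08, SE 0.360, adjusted p = 0.9) and Lhx8 (log2 difference 0.18, SE 0.315, adjusted p = 0.731), both needed for early follicles, were not called.

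Of 31 genes of PI3K signalling and its FOXO targets, 2 were higher and 5 lower, with a median of -0.17. Kit, the receptor whose ligand starts oocyte growth, was at 522, 437 and 488 RPM against 732, 711 and 715 RPM with an adjusted p of 0.0592 in limma and 9.76e-04 in edgeR. All 3 D20 libraries were below all 3 P6 large libraries. Gsk3b, a kinase that AKT inhibits, was lower at 42.0, 24.4 and 40.6 RPM against 67.8, 60.7 and 59.4 RPM (log2 difference -0.83, SE 0.178, adjusted p = 6.28e-04). Rictor, a subunit of mTOR complex 2, was also lower (log2 difference -0.67, SE 0.230, adjusted p = 0.0341). Foxo3 itself was at 90.0, 68.7 and 84.5 RPM against 96.1, 87.1 and 89.4 RPM (log2 difference -0.17, SE 0.267, adjusted p = 0.7), and its groups overlapped. D20 replicate 2 was the lowest library for Rictor and Gsk3b, and without it 0 genes were higher and 3 lower. edgeR gave 1 higher and 10 lower.

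The meiotic prophase list gave 1 gene higher and 4 lower of 25, with a median of 0.07. The lower ones were Smc1b, a meiotic cohesin, at 107, 107 and 95.4 RPM against 214, 189 and 195 RPM (log2 difference -0.94, SE 0.171, adjusted p = 7.49e-05), and the synaptonemal complex genes Sycp1 (log2 difference -0.73, SE 0.194, adjusted p = 0.00598), Sycp3 (log2 difference -0.47, SE 0.164, adjusted p = 0.0361) and Syce1 (log2 difference -0.66, SE 0.189, adjusted p = 0.00962). Smc1b did not overlap between the groups and was about 2-fold apart. Hormad1, which marks unsynapsed chromosome axes, was higher at 2.99, 3.75 and 3.05 RPM against 0.629, 0.618 and 1.12 RPM (log2 difference 1.26, SE 0.196, adjusted p = 6.41e-06), from a mean under 1 RPM in P6 large. It entered the comparison only through its D20 level. The piRNA and transposon defence list gave 1 higher and 5 lower of 19, against 13.7% and 6.84% over all genes. Its median was -0.09. Piwil2 (MILI), which binds piRNAs, was at 86.4, 74.1 and 74.1 RPM against 167, 161 and 174 RPM (log2 difference -1.09, SE 0.218, adjusted p = 2.87e-04). The helicase gene Mov10l1 was at 31.2, 32.3 and 24.9 RPM against 46.1, 46.9 and 56.6 RPM (log2 difference -0.74, SE 0.190, adjusted p = 0.00412) and Tex15 at 46.0, 46.2 and 44.8 RPM against 94.7, 73.0 and 70.2 RPM (log2 difference -0.77, SE 0.227, adjusted p = 0.012). Fkbp6, a co-chaperone of the piRNA pathway, was also lower (log2 difference -0.72, SE 0.154, adjusted p = 6.26e-04), and none of these 4 genes overlapped between the groups. edgeR called 9 of the 19 lower.

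Among 14 tested genes of primordial germ cells and pluripotency, 5 were higher and 0 lower, against 13.7% and 6.84% over all genes. The list's median was 0.38. The levels were low. Klf4 was at 15.3, 11.8 and 18.4 RPM against 6.39, 5.15 and 6.32 RPM (log2 difference 1.20, SE 0.289, adjusted p = 0.00218). Prdm1 (BLIMP1) was at 10.5, 10.4 and 16.7 RPM against 6.55, 4.02 and 6.41 RPM (log2 difference 1.02, SE 0.231, adjusted p = 0.00127). The germ cell-like cells had been collected with a Blimp1-mVenus reporter. Sox2 at 5.64, 3.81 and 4.69 RPM against 0.367, 1.03 and 0.609 RPM (log2 difference 1.78, SE 0.411, adjusted p = 0.00146) and Zfp42 at 2.51, 2.39 and 1.58 RPM against 0.105, 0.412 and 0.234 RPM (log2 difference 1.33, SE 0.195, adjusted p = 2.12e-06) entered the comparison only through their D20 level. The groups did not overlap for any of the 4.

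DNA methylation genes gave 2 higher and 2 lower of 14. Dnmt1, the maintenance methyltransferase, was at 5586, 4794 and 4836 RPM against 4711, 4724 and 4828 RPM (log2 difference 0.09, SE 0.146, adjusted p = 0.712). Dnmt3l, the cofactor that oocytes need for imprints, was higher at 67.6, 64.4 and 61.8 RPM against 41.4, 44.2 and 47.8 RPM (log2 difference 0.53, SE 0.140, adjusted p = 0.00528). The dioxygenase gene Tet1 was higher (log2 difference 1.35, SE 0.400, adjusted p = 0.0126), and Tet2 (log2 difference -0.97, SE 0.209, adjusted p = 6.56e-04) was lower. Of 22 histone methylation genes 2 were higher, Kmt2b (log2 difference 0.48, SE 0.159, adjusted p = 0.0274) and Kdm1a (log2 difference 0.36, SE 0.111, adjusted p = 0.0157), and 1 lower, Suz12 (log2 difference -0.65, SE 0.216, adjusted p = 0.0259). Of the 24 tested imprinted genes 7 were higher and 3 lower, against 13.7% and 6.84% over all genes, with a median of 0.19. In the Dlk1 to Meg3 cluster the directions were opposite: the paternally expressed Dlk1 was lower at 0.339, 0.489 and 0.352 RPM against 4.35, 3.09 and 2.95 RPM (log2 difference -1.67, SE 0.263, adjusted p = 8.26e-06). The maternally expressed non-coding genes Meg3, at 3.73, 2.99 and 4.86 RPM against 0.733, 1.18 and 0.609 RPM (log2 difference 1.39, SE 0.441, adjusted p = 0.0197), and Rian, at 5.02, 2.56 and 3.98 RPM against 0.995, 0.875 and 0.936 RPM (log2 difference 1.29, SE 0.440, adjusted p = 0.031), were higher. Meg3 and Rian had means under 1 RPM in P6 large, and Dlk1 in D20. Each thus entered the comparison only through the group where it was higher, and no support is drawn from their opposite directions. Of the 24 imprinted genes, 20 reached 1 RPM in both groups. Igf2, a growth factor gene, was higher at 5.57, 3.97 and 5.74 RPM against 1.62, 1.44 and 1.92 RPM (log2 difference 1.19, SE 0.289, adjusted p = 0.00257). All these imprinted genes were at only a few RPM.

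The hypoxia target list gave 3 higher and 2 lower of 28. Car9, a carbonic anhydrase that hypoxia-inducible factor controls, was at 116, 119.8 and 127 RPM against 60.8, 77.4 and 69.3 RPM (log2 difference 0.80, SE 0.292, adjusted p = 0.0442). Ddit4 (REDD1), which restrains mTORC1, was at 137, 122 and 142 RPM against 81.8, 74.9 and 84.9 RPM (log2 difference 0.72, SE 0.258, adjusted p = 0.0405). Pfkfb3, which makes the activator of phosphofructokinase, went the other way at 103, 99.0 and 94.5 RPM against 170.1, 152 and 142 RPM (log2 difference -0.64, SE 0.228, adjusted p = 0.04). Without D20 replicate 2 limma called 0 of the list in either direction. The differences of these 3 genes were as large without it, at 0.81 for Car9 (adjusted p = 0.101), 0.79 for Ddit4 (adjusted p = 0.0676) and -0.64 for Pfkfb3 (adjusted p = 0.0945). Glycolysis gave 3 higher and 1 lower of 18: the phosphofructokinases Pfkl, at 74.1, 82.4 and 68.7 RPM against 40.8, 32.4 and 35.3 RPM (log2 difference 1.04, SE 0.289, adjusted p = 0.00805), and Pfkp (log2 difference 1.07, SE 0.312, adjusted p = 0.0111), and Tpi1 (log2 difference 0.65, SE 0.198, adjusted p = 0.0156) were higher, and the lactate transporter Slc16a1 (log2 difference -0.70, SE 0.217, adjusted p = 0.0177) was lower.

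Respiratory chain genes gave 0 higher and 1 lower of 75 and cytosolic ribosomal protein genes 0 higher and 1 lower of 76, with medians of -0.02 and -0.18. The single genes were Sdhc, of succinate dehydrogenase (log2 difference -0.38, SE 0.111, adjusted p = 0.012), and Rps14 (log2 difference -0.52, SE 0.164, adjusted p = 0.0194). edgeR called 24 of the 76 ribosomal genes lower and the length-adjusted fit with transcript length adjusted 30. The median of the ribosomal genes was -0.39 in D20 replicate 1, 0.09 in replicate 2 and -0.27 in replicate 3, relative to the mean of P6 large. Mitochondrial ribosomal protein genes gave 8 higher and 1 lower of 76, with a median of 0.10, among them Mrps9 (log2 difference 0.72, SE 0.135, adjusted p = 1.17e-04) and Mrpl1 (log2 difference 0.61, SE 0.123, adjusted p = 3.09e-04). Of 26 proliferation genes limma called 0, with 5 at an unadjusted p under 0.05. edgeR called 1 of them higher and 1 lower, and 1 was lower after rescaling.

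**Figure D4:**
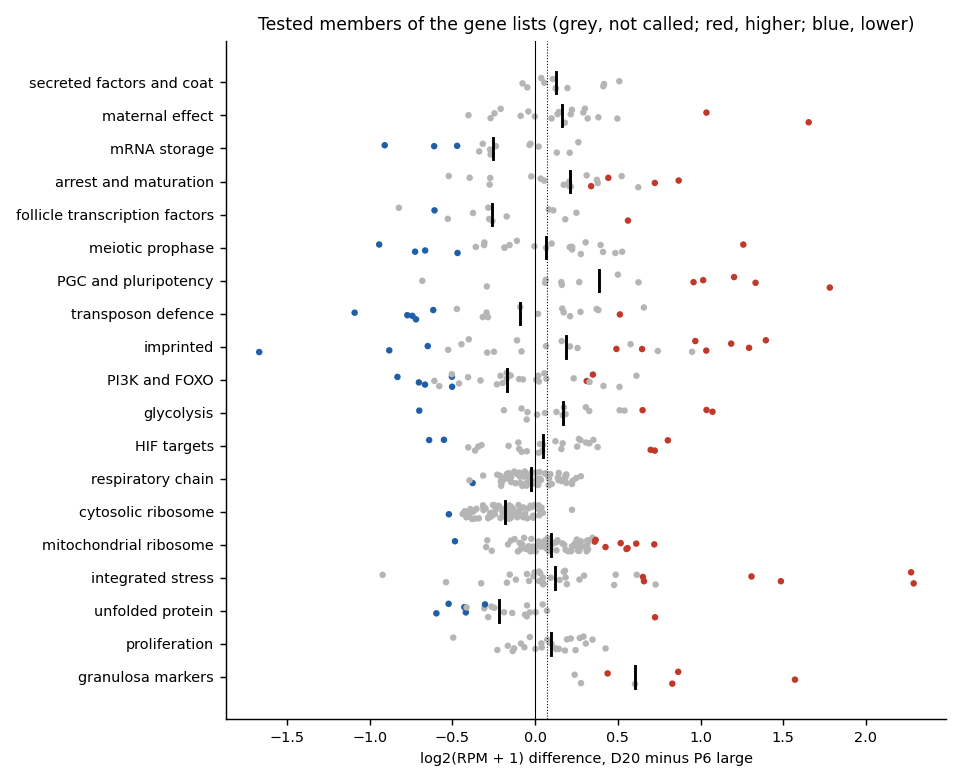
Log2 difference, D20 minus P6 large, of each tested gene in the gene lists (points, one row per list), with the list's median and the genes called in limma marked. The medians of most lists lie close to the median over all genes, 0.07.

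The integrated stress list gave 6 higher and 0 lower of 34, against 13.7% higher and 6.84% lower over all genes, with a median of 0.12. edgeR called 7 of it higher and 3 lower, and rescaling gave 6 higher and 2 lower. Stc2, the stanniocalcin gene, was at 15.8, 11.7 and 15.5 RPM against 2.15, 1.49 and 2.86 RPM (log2 difference 2.29, SE 0.344, adjusted p = 3.41e-06). The lipoprotein receptor gene Vldlr was at 7.47, 11.5 and 12.2 RPM against 1.26, 1.08 and 1.64 RPM (log2 difference 2.27, SE 0.334, adjusted p = 2.21e-06), and the amino acid transporter gene Slc38a2 at 6.65, 4.404 and 6.27 RPM against 3.3, 0.978 and 0.609 RPM (log2 difference 1.49, SE 0.264, adjusted p = 5.74e-05). No library overlapped for these. The unfolded protein list gave 1 higher and 5 lower of 20, with a median of -0.22, and edgeR gave 10 lower. The lower genes included the endoplasmic reticulum chaperone gene Hsp90b1, at 753, 970.4 and 717 RPM against 1083, 1105 and 1066 RPM (log2 difference -0.43, SE 0.120, adjusted p = 0.00861), and Dnajc3, which restrains the kinase PERK, at 50.6, 44.2 and 54.1 RPM against 76.2, 76.2 and 73.5 RPM (log2 difference -0.60, SE 0.134, adjusted p = 0.00111).

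The heat shock list gave 4 higher and 2 lower of 13, with the small chaperone gene Hspb1 higher at 10.2, 9.46 and 9.73 RPM against 2.99, 3.66 and 3.42 RPM (log2 difference 1.31, SE 0.300, adjusted p = 0.00134), Hsf1 higher (log2 difference 0.41, SE 0.0990, adjusted p = 0.0021) and Hsf2 lower (log2 difference -0.58, SE 0.116, adjusted p = 2.53e-04). Antioxidant genes gave 3 higher and 3 lower of 22. The glutathione reductase gene Gsr was lower at 10.5, 9.19 and 9.96 RPM against 28.7, 22.4 and 18.7 RPM (log2 difference -1.14, SE 0.214, adjusted p = 1.27e-04), as was the heme oxygenase gene Hmox1 (log2 difference -0.98, SE 0.263, adjusted p = 0.00583), and the glutathione transferase gene Gstp1 was higher (log2 difference 1.05, SE 0.278, adjusted p = 0.00529). Jund, an AP-1 factor, was higher at 77.7, 91.7 and 84.2 RPM against 21.5, 27.4 and 29.9 RPM (log2 difference 1.66, SE 0.227, adjusted p = 6.17e-07), in an immediate-early list with 2 higher and 2 lower of 14. The 12 interferon-response genes tested out of 27 had a median of 0.46. Of the 12, 4 were higher and 0 lower, against 13.7% and 6.84% over all genes. These were Bst2, at 15.8, 22.6 and 17.7 RPM against 5.60, 7.21 and 7.54 RPM (log2 difference 1.33, SE 0.251, adjusted p = 1.25e-04), the class I gene H2-K1 (log2 difference 0.87, SE 0.309, adjusted p = 0.039), Oasl1 (log2 difference 0.69, SE 0.256, adjusted p = 0.0491) and Mx1 (log2 difference 0.86, SE 0.195, adjusted p = 0.00121). Mx1 was under 1 RPM in P6 large and entered the comparison only through its D20 level.

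Contact and fertilisation genes gave 3 higher and 4 lower of 15. Folr4 (JUNO), the egg receptor for the sperm, was at 182, 237 and 181 RPM against 96.6, 111 and 124 RPM (log2 difference 0.85, SE 0.305, adjusted p = 0.0424). The actin bundler gene Fscn1 was at 13.3, 14.6 and 10.8 RPM against 3.88, 4.53 and 5.95 RPM (log2 difference 1.27, SE 0.268, adjusted p = 5.29e-04). Myo10, a myosin of filopodia, was lower at 216, 166 and 183 RPM against 422, 334 and 334 RPM (log2 difference -0.94, SE 0.182, adjusted p = 1.72e-04). Gja4, the connexin of the oocyte's junctions with granulosa cells, was at 649.9, 707 and 657 RPM against 504, 547 and 510.0 RPM (log2 difference 0.37, SE 0.350, adjusted p = 0.495). It was not called, though its D20 libraries all lay above its P6 large libraries. The cholesterol list gave 3 higher and 0 lower of 22, with the sterol demethylase gene Cyp51 (log2 difference 0.64, SE 0.217, adjusted p = 0.0293) among them. The autophagy and lysosome list gave 2 higher and 1 lower of 26. The lower gene was Npc1, the cholesterol exporter of the lysosome, at 103, 69.9 and 99.0 RPM against 191, 180.2 and 195 RPM (log2 difference -1.07, SE 0.143, adjusted p = 3.68e-07), and its groups did not overlap.

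Markers of the oocyte and of other ovarian cells were read in the same libraries. The 12 oocyte markers summed to 43264 to 57448 RPM in D20 and 50191 to 54818 RPM in P6 large. Of these 12 limma called 1 lower, Dazl, and none without D20 replicate 2. edgeR called 5 lower, and 3 were lower after rescaling. Of 22 granulosa markers, 15 had a mean under 1 RPM in both groups, among them Amhr2 at 0.136, 0.0544 and 0 RPM against 0.157, 0.103 and 0.187 RPM and Foxl2 at 0.339, 0.163 and 0.117 RPM against 0.105, 0.463 and 0.140 RPM. Of the 7 tested, 4 were higher in D20 and 0 lower: Gata4 at 46.6, 42.1 and 48.2 RPM against 13.8, 16.6 and 13.7 RPM (log2 difference 1.57, SE 0.294, adjusted p = 1.18e-04), Esr2 at 38.2, 31.2 and 44.1 RPM against 19.7, 19.4 and 21.3 RPM (log2 difference 0.87, SE 0.305, adjusted p = 0.0376), Cyp19a1 (log2 difference 0.83, SE 0.223, adjusted p = 0.00607) and Fshr (log2 difference 0.44, SE 0.157, adjusted p = 0.0411). Over all genes tested, 13.7% were higher and 6.84% lower. The whole granulosa list summed to 177 to 193 RPM in D20 and 108 to 119 RPM in P6 large. Blood and immune markers summed to 23.9 to 30.3 RPM in D20 and 8.17 to 10.3 RPM in P6 large. Of these 15 markers 12 were under 1 RPM, Lyz2, Cd52, Tyrobp, Cd74 and Hbb-bt were at 0 in all 6 libraries, and C1qb, at 16.02, 20.6 and 20.5 RPM against 3.72, 7.57 and 5.62 RPM (log2 difference 1.63, SE 0.410, adjusted p = 0.00345), and Laptm5 (log2 difference 1.34, SE 0.441, adjusted p = 0.0256) were higher.

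Endothelial markers summed to 49.5 to 52.0 RPM in D20 and 28.8 to 37.0 RPM in P6 large, with Pecam1 higher (log2 difference 0.89, SE 0.304, adjusted p = 0.0322) and the defining markers Cdh5 and Emcn at 0 in all 6 libraries. Mesothelial and epithelial markers summed to 8.16 to 10.7 RPM and 1.78 to 2.81 RPM, with Pax2 (log2 difference 1.55, SE 0.174, adjusted p = 6.92e-09) and Upk3b (log2 difference 1.47, SE 0.303, adjusted p = 4.13e-04) higher and Upk1b at 0. Of the 6 markers of that list 2 were tested. Upk3b, at a mean of 0.689 RPM in P6 large, entered only through its D20 level. Of 4 stroma and theca markers tested, limma called 0 and edgeR 0, with 0 at an unadjusted p under 0.05 in limma. The whole list summed to 16.4 to 25.5 RPM in D20 and 16.53 to 22.4 RPM in P6 large, and Lum and Cyp17a1 were at 0. Of the 5 Sertoli markers 1 was tested, Ptgds, at 3.80, 5.38 and 3.22 RPM against 8.38, 7.88 and 7.73 RPM (log2 difference -0.83, SE 0.318, adjusted p = 0.0572). limma did not call it, while edgeR called it lower (adjusted p = 0.00675), as did limma after rescaling (adjusted p = 0.0255). The part of other cells in the differences of single genes was not tested. In libraries of many cells, fewer cells of a type and less RNA per cell cannot be told apart.

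Transcript length moved with the difference. Of the 12599 genes 12009 (95.3%) had a length, and across these genes, which are not independent, Spearman's rho between length and log2 difference was -0.21, or -0.08 without D20 replicate 2. The median length was 2805 bases for genes higher in D20, 4463 for genes lower and 3197 for all. The genes were split into 5 equal groups by length. From the shortest to the longest group, the share called lower went from 2.62% to 12.6%, and the counts were 63, 101, 153, 219 and 302. Without D20 replicate 2 these counts were 52, 80, 101, 110 and 114. The median difference of D20 replicate 2 from the mean of P6 large went from 0.29 in the shortest group to -0.23 in the longest, while that of D20 replicate 1 was 0.02, 0.09, 0.09, 0.06 and 0.01 from the shortest to the longest group. For D20 replicate 3 it was 0.09 in the shortest, 0.13 in the next and -0.06 in the longest group. The P6 large libraries lay between -0.05 and 0.04. A further fit, chosen after the data were seen, took off each library's median difference from the mean of P6 large within 20 bins of length. That removes an overall shift of a library as well as a length trend. It called 1307 genes higher (10.9%) and 1401 lower (11.7%). Of the 1728 higher genes 1200, and of the 862 lower genes 804, were among the calls in the same direction. Rescaling by size factors, with no length term, called 1542 higher and 1317 lower.

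**Figure D5:**
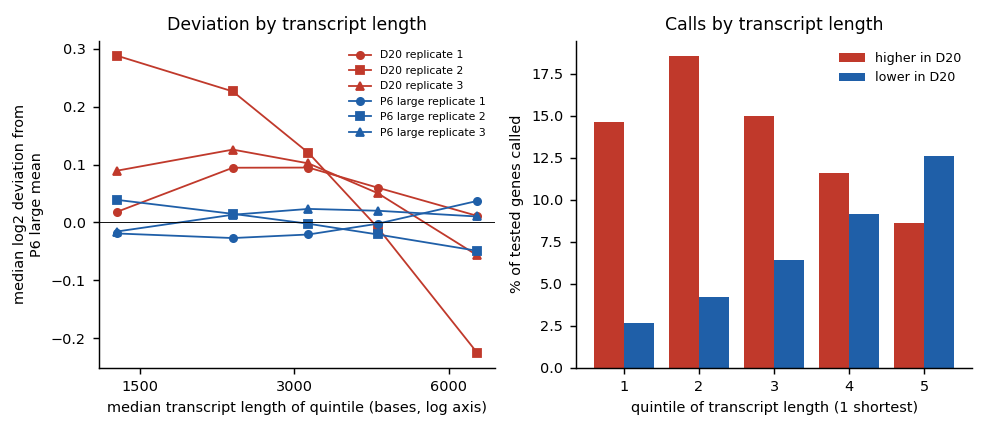
Median log2 difference from the mean of P6 large (y axis) in 5 equal groups of genes by transcript length (x axis), 1 line for each D20 and each P6 large library. D20 replicate 2 falls from 0.29 to -0.23, D20 replicate 3 goes from 0.09 to -0.06, and D20 replicate 1 starts at 0.02 and ends at 0.01.

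Without D20 replicate 2, limma called 1187 genes higher (9.43%) and 469 lower (3.73%). Of the 1728 genes higher in D20, 1147 were also called higher without D20 replicate 2 and 1393 by edgeR. Of the 862 lower genes, 429 were called lower without D20 replicate 2 and 800 by edgeR. No gene was called in the opposite direction by these fits. Of the named genes, 37 were called with all libraries but not without D20 replicate 2, and 9 of them then had under 75% of their difference, a limit chosen after the data were seen. These included Ddx6 (-0.41 without it), Dazl (-0.38), Cnot6l (-0.23), Suz12 (-0.30), Rictor (-0.40) and Slc16a1 (-0.40). The other 28 kept at least 75% of their difference, among them Aurka, Obox5, Tet1, Kdm1a, Car9, Ddit4, Pfkfb3, Tpi1, Cyp51, H2-K1, Oasl1, Folr4, Fshr, Pecam1 and Laptm5. Named genes that edgeR did not call included Manba, Ccdc147, Ddx6, Cnot6l, Suz12 and Fshr. Tet3, the dioxygenase of the zygote, was at 324, 113 and 316 RPM against 474, 381 and 408 RPM (log2 difference -0.88, SE 0.321, adjusted p = 0.0439), and without D20 replicate 2 its difference was -0.39 with an adjusted p of 0.476.

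A second comparison of culture with ovary used none of the same libraries: wild-type cultures at D21 in normoxia against P4 large oocytes, with 2 and 3 libraries. It called 5313 of the 12599 genes (42.2%), 2967 higher (23.5%) and 2346 lower (18.6%). Leaving out 1 library gave 2022 to 8481 calls, the fewest without P4 large replicate 2 and the most without D21 replicate 1. Of the 1728 genes higher in D20, 772 (44.7%) were higher there and 31 (1.79%) lower, and the 772 were 26.0% of its higher genes. Of the 862 genes lower in D20, 440 (51.0%) were lower there and 43 (4.99%) higher, and the 440 were 18.8% of its lower genes. Both shares in the same direction were above the background of 23.5% and 18.6%. Across genes, Pearson's r was 0.47. Strain label differs in the same way in both comparisons. Day and age do not, since the second sets a later culture day, D21, against a younger ovary, P4. Its cultures are labelled normoxia, while the D20 course has no oxygen label. The P4 large libraries are also among the 54 from which the main fit took its spread. Both D21 libraries had a length trend, taken as the median difference from the mean of P6 large. From the shortest to the longest length group it went from 0.60 to -0.15 in D21 replicate 1 and from 1.02 to -0.77 in D21 replicate 2.

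For the leading genes, Pla2g4e differed by 2.71 (adjusted p = 3.26e-04) in the D21 comparison, Agpat9 by 3.48 (3.26e-04) and Fxyd6 by 2.36 (3.26e-04). Slc26a5 differed by -3.20 (0.00284) and Acsf2 by -2.26 (3.83e-04). Manba (0.43, 0.18), Ccdc147 (1.73, 0.122), Bcat1 (0.54, 0.0668) and St3gal5 (0.48, 0.11) were not called there. The difference at D20 from P6 large was itself compared with the earlier pair, D13 against P4 large, which shares no library with it. That test called 3829 of 12599 genes (30.4%), 2043 with a higher difference at the later pair (16.2%) and 1786 with a lower one (14.2%), and 1635 (13%) differed by at least 1 log2 unit.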

How the data were processed

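Gene values were deposited by the authors as RPM, reads per 1000000 reads, in 1 table of 24062 genes and 66 libraries. Per the labels, libraries were directional, poly(A)-selected and amplified for 12 PCR cycles. Per the submitters' processing notes, TopHat2, Bowtie2 2.0.13, featureCounts 1.5.1, R 3.4.4 and the mm10 build were used; no role or order is given there. Groups came from the sample titles. The test was limma 3.58.1 (R 4.3.3), with trend, on log2(RPM + 1), so that a fold change understates the change of low genes. It was fitted jointly on 54 libraries of 18 groups with 36 residual degrees of freedom, two-sided, with Benjamini-Hochberg adjustment over 12599 genes and a threshold of 0.05. D21 cultures were fitted with P4 large alone.

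Dividing the deposited RPM by the value of 1 read gave whole reads, within 0.01 read, for 99.9958% of values in P6 large replicate 1 and 100% in the others. edgeR 4.0.16 and DESeq2 1.42.0 were run on these reads as alternatives. Floors of 3 reads cover counting error only. Genes were named as the 12 largest differences each way among called genes without overlap and with a higher mean of at least 20 RPM, up to 4 members of each list, a fixed panel, and neighbours within 100 kb. The genes and lists were chosen with earlier results of these data known. Lists are described by counts and medians, with no test of a list. Some genes that these rules name are not reported here. Lengths were the GENCODE vM21 transcripts.

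Tested on simulated data for D20 against P6 large, the joint fit recovered 49.3% of genes changed 1.5-fold, 91% of those changed 2-fold and 100% of those changed 4-fold, with 47 false calls among 12373 genes. A fit of the 6 libraries alone gave 12 false calls and edgeR 9.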

Additional observations from a re-analysis of the deposited data

Results flagged for a closer look

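For 47 named genes, the difference between culture and ovary was not the same at both pairs: D20 minus P6 large differed from D13 minus P4 large by at least 1 log2 unit, with an adjusted p under 0.05 in limma for the difference of differences. Across all 12599 genes, 30.4% passed that test at any size and 13% with at least 1 log2 unit. Of the 149 named genes tested, 65 passed at any size. Many named genes were picked for a large difference of D20 from P6 large, which enters this test. The share over all genes is therefore not a like background, and no support is drawn from the count. Values below are the later difference minus the earlier one, in log2 units. Such a value can come from either pair or from both, and is not the size of the difference at D20.

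Among the leading genes the later difference was higher for Spesp1 (1.80), Steap4 (1.55), Manba (2.47), Emx2 (2.97), Atp2b4 (1.91) and Bcat1 (1.48). Among oocyte genes it was higher for Oog1 (2.09), Nlrp9b (1.54), Bmp15 (2.12), Fbxo5 (1.07), Obox5 (3.22) and Dnmt3l (2.76), and lower for Figla (-1.44) and Sohlh1 (-1.85). Each of the higher ones lay below the ovary at the earlier pair, from -0.35 for Fbxo5 to -2.66 for Obox5. At the later pair they ran from 0.41 for Bmp15 to 1.65 for Oog1. Figla went from 0.91 to -0.53 and Sohlh1 from 1.03 to -0.82.

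The meiotic genes Sycp3 (-1.23), Smc1b (-1.23), Syce1 (-1.50) and Hormad1 (-1.01) and the transposon defence genes Tex15 (-1.13), Mov10l1 (-1.31) and Fkbp6 (-1.38) all had a lower later difference. Hormad1 stayed higher in culture, by 2.27 at the earlier pair and 1.26 at the later. The others were higher in culture at the earlier pair and lower at the later. For Smc1b the means were 438 RPM at D13, 358 RPM in P4 large, 103 RPM at D20 and 199 RPM in P6 large.

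Of germ cell and chromatin genes, Sox2 (2.14), Klf4 (1.62) and Tet1 (2.06) had a higher later difference and Tet2 (-1.21) a lower one. Imprinted genes went both ways, with Dlk1 at -1.74 and Igf2 at 1.20. Of metabolic and stress genes the later difference was higher for Ddit4 (2.08), Pfkp (1.71), Stc2 (3.01), Dnajb1 (1.19) and Jund (1.22). It was lower for Rps14 (-1.47), Tm7sf2 (-1.46), Gsr (-1.31), Gsta4 (-1.32), Bax (-1.54), Egr1 (-1.81) and Ier2 (-1.07). Tm7sf2 stayed higher in culture, by 1.96 at the earlier pair and 0.50 at the later.

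Of contact genes and markers of other cells the later difference was higher for Cdh2 (1.48), Gata4 (1.75), Esr2 (2.12), Cyp19a1 (1.21), Pecam1 (1.31), Pax2 (1.97) and Upk3b (1.69), and lower for Ptgds (-1.96).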

How the results depend on the processing

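The 2590 genes called between D20 and P6 large became 3892 with DESeq2, 1926 of them lower, and the 862 lower genes became 1805 with edgeR, 1317 after rescaling and 1401 with transcript length adjusted. The 633 genes of at least 1 log2 unit became 185 with a pseudocount of 5, 986 with edgeR and 1000 with DESeq2. Leaving out 1 library at a time gave 1620 to 2340 genes called, 1104 to 1495 higher and 469 to 845 lower, with the lowest totals without P6 large replicate 1 (1620) and without D20 replicate 2 (1656). The 1882 genes between D20 and D17 became 3027 when those groups were fitted alone. The 5313 genes between D21 in normoxia and P4 large became 2022 to 8481 on leaving out 1 library: 2956, 2022 and 3126 without P4 large replicates 1, 2 and 3, and 8481 and 6241 without D21 replicates 1 and 2. With 1 D21 library left, the spread comes from P4 large alone, and the lone sample is assumed to vary like that group. The cause was not tested in any of these cases. Counts for P4 small against large, D20 against P6 small, the difference of differences and non-overlap stayed within 1.5 times under every alternative run, and no named gene reversed.

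Same-numbered D20 and P6 large libraries deviated together with correlations of 0.07, 0.16 and 0.06. Pairs with different numbers gave -0.15 to 0.06. Whether same-numbered libraries have anything in common beyond the number was not tested. With the replicate number as a block in the 6-library fit, 4142 genes were called, 2635 higher and 1507 lower. Without the block that fit called 3816.

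Of the 126 named genes called, 14 were lost with edgeR, 8 with DESeq2, 7 with the 6 libraries alone, 21 with length adjusted and 26 to 38 on leaving out 1 library. In the simulation, 22 of the 47 false calls of the joint fit fell among 700 genes whose mean elsewhere was under 25% of their level in D20 and P6 large. In the real data 290 of 724 such genes were called, 239 of them also by edgeR. Depth limits what can be said of genes under 0.204 RPM, the level of 3 reads in the shallowest library.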

Other observations

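Of all genes tested, 20.6% were called. Of 17 p53 targets 1 was higher and 2 were lower: the cell death gene Bbc3 (PUMA) was higher (log2 difference 0.95, SE 0.315, adjusted p = 0.0259), and the cell death gene Bax (log2 difference -0.44, SE 0.156, adjusted p = 0.04) and the ribonucleotide reductase gene Rrm2b (log2 difference -0.77, SE 0.206, adjusted p = 0.00622) were lower. None of these 3 was called without D20 replicate 2. Their differences were then 0.76 for Bbc3, -0.49 for Bax and -0.53 for Rrm2b, so that of Bax was no smaller. The cell cycle inhibitor gene Cdkn1a was at 5.16, 6.80 and 4.04 RPM against 2.10, 3.35 and 2.53 RPM and not called (log2 difference 0.78, SE 0.319, adjusted p = 0.0749). Of 11 matrix genes 1 was higher, the basement membrane collagen gene Col4a1, at 13.9, 11.9 and 12.4 RPM against 5.24, 4.89 and 5.15 RPM (log2 difference 1.17, SE 0.328, adjusted p = 0.00841), with no overlap between the groups. Of 35 proteasome genes 1 was higher, Psmd5 (log2 difference 0.31, SE 0.0796, adjusted p = 0.00454), which edgeR did not call. Of 18 amino acid transporter genes 2 were higher and 0 lower, Slc38a2 and the glutamate transporter gene Slc1a1 (log2 difference 0.58, SE 0.214, adjusted p = 0.0491). edgeR did not call Slc1a1.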
